A study of Mus musculus with 6 samples.

Results

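The genes of the cytosolic ribosomal proteins were examined for acetylation of histone H3 at lysine 27 (H3K27ac), a mark of active promoters and enhancers, in cardiomyocyte nuclei of the mouse left ventricle. Members were all protein-coding genes on chromosomes 1 to 19 and X whose symbols begin with Rpl or Rps and a digit, or are Rplp0, Rplp1 or Rplp2, with the S6 kinase genes left out. This gave 90 genes of 21627. They comprised 43 genes of the large subunit, 30 of the small subunit, 3 of the stalk (Rplp0, Rplp1 and Rplp2), 7 paralogues with genes of their own (Rpl3l, Rpl7l1, Rpl10l, Rpl22l1, Rpl36al, Rpl39l and Rps27l), 6 genes with names of copies (Rpl31-ps12, Rpl32l, Rpl34-ps1, Rpl37rt, Rps23rg1 and Rps27rt) and Rps19bp1, which encodes a binding partner of Rps19 and not a ribosomal protein. The label therefore holds for most members and not for all.

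The nuclei came from FVB mice aged 8 to 12 weeks and were sorted by PCM-1, which marks the nuclei of cardiomyocytes. CUT&RUN, in which an antibody directs a nuclease to chromatin and the released fragments are sequenced, was done on wild-type mice (WT, 3 libraries) and on mice with a CRISPR deletion of Nppa and Nppb, the natriuretic peptide genes (HOM, 3 libraries). The labels do not say whether a library is 1 mouse or a pool, nor how many deletion founders were used. The growth protocol also lists Myh6-MerCreMer, nTnG and Sun1/sfGFP mice on this background without tying them to these libraries. Peaks had been called in each library alone, so the values below are calls and their properties, not read counts.

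Ribosomal proteins assemble with ribosomal RNA into the small subunit, which reads the messenger RNA, and the large subunit, which joins amino acids; the stalk of the large subunit recruits translation factors. Their genes are short, active in every cell type and present once each as an expressed gene, beside many processed copies elsewhere in the genome. Their transcripts typically begin with a C followed by a run of C and T, the terminal oligopyrimidine tract, through which growth signalling by mTOR and LARP1 controls their translation. Rpl3l differs in being a striated muscle paralogue of Rpl3.

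The start regions of a few members are shown here to be set beside their peaks below. Each stretch runs from 60 bases before to 25 bases from the annotated start, 5′ to 3′ on the gene's strand, from RefSeq on GRCm38.p6 (mm10). Capitals mark the longest run of C and T of at least 5 bases that touches the 10 bases on either side of the start, and the first of equally long runs. Rpl27a, Rps21, Rpl13a, Rps9 and Rpl15 were among the genes with the highest mean fold percentile, Rps27 and Rps27rt are a gene and its copy, and Rpl3l is given at both of its annotated starts.
Rpl27a (chr7:109519135-109519219, + strand): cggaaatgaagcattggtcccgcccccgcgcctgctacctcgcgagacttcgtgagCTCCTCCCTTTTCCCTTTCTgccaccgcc
Rpl15 (chr14:18270962-18271046, − strand): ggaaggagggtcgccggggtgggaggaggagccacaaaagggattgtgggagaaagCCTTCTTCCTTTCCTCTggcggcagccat
Rpl13a (chr7:45128721-45128805, − strand): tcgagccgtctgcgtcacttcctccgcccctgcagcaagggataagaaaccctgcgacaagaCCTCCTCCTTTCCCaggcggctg
Rps21 (chr2:180257319-180257403, + strand): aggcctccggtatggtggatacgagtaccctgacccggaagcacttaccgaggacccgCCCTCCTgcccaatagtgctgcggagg
Rps9 (chr7:3703981-3704065, + strand): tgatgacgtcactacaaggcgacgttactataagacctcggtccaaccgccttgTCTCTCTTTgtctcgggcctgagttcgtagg
Rps27 (chr3:90213624-90213708, − strand): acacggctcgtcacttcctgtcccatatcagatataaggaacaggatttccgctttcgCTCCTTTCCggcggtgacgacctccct
Rps27rt (chr9:114982715-114982799, − strand): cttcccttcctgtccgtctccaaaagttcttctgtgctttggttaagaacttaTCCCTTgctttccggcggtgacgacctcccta
Rpl3l, first start (chr17:24727766-24727850, + strand): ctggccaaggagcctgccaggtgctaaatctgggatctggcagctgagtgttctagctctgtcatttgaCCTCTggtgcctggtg
Rpl3l, inner start (chr17:24732625-24732709, + strand): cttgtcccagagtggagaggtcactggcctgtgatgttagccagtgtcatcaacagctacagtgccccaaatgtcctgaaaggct

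The run near the start was 20 bases long in Rpl27a, 17 in Rpl15, 14 in Rpl13a, 9 in Rps9 and in Rps27 and 7 in Rps21, and 5 and 4 bases at the first and the inner start of Rpl3l. Rps21 has another annotated start 70 bp into the gene, with a run of 4 bases, that is not shown. In Rps27rt a second run of 6 bases, in lower case, begins at the start base. A C at the start base followed by 4 bases of C or T was present in Rpl15, Rps21, Rps27 and Rps27rt and not in Rpl27a, Rpl13a, Rps9 or Rpl3l. A promoter entry, from 250 bases before to 50 after a start, was matched for 69 of the 90 members and for 17273 protein-coding genes in all. A C at the start base followed by at least 4 bases that are each C or T was found in 14 of the 69 members (20.3%), against 2.19% of all 17273 promoters. A run of 8 or more C and T near the start was found in 29 members (42%), against 13.7% of all. These counts take the annotated start as given. By marking, the C start was present in 3 of 8 members marked in no library (37.5%), 5 of 36 marked in 1 or 2 libraries (13.9%) and 6 of 25 marked in 3 or more (24%). The 3 unmarked ones were Rpl32l and Rps27rt, which have names of copies, and Rpl38. At Rpl38 the C start was read at a start 762 bp inside the gene end used for marking.

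Searched on both strands of the same windows, the ETS core CCGGAA was present in 32 of 69 member promoters (46.4%, against 19.3% of all promoters) and the YY1 string GCCATNTT in 14 (20.3%, against 6.71%). The shares lay nearer for the TATA string TATAA (20 members, 29%, against 23%), the Sp1 string GGGCGG (39, 56.5%, against 46.9%) and the E-box CACGTG (5, 7.25%, against 8.01%). None of these strings contains another. The median CpG count was 21 per window in members and 14 in all promoters, at a median GC content of 57% and 56.3%. These are matches of letters and were not tested.

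The lists of the 6 libraries differed greatly in length, with 21340, 72362 and 106605 peaks in the 3 WT libraries (replicates 1 to 3) and 48102, 1462 and 15184 in the HOM ones. At least 11 of 15 cardiomyocyte markers such as Actc1 and Atp2a2 were marked in every library except HOM replicate 2, where none was, so the labelled cell type could not be checked in that library. None of 12 fibroblast and 13 endothelial markers was marked in any library, against up to 4 of 10 smooth muscle and pericyte markers and 2 of 12 immune markers. On the Y chromosome below 80 Mb, 111 peaks were called in WT replicate 1 and 112 in HOM replicate 1, against at most 5 elsewhere. Nothing in the labels says whether libraries came from separate mice, and whether the spread between them is technical or biological was not tested.

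In the 3 longest lists 45.6 to 87.8% of ribosomal protein genes carried acetylation at their ends, about double the share of protein-coding genes in general, and almost none did in the 2 shortest. A gene was counted as marked when a called peak overlapped the 1 kb on either side of either annotated gene end. Of the 90 genes, WT replicates 1 to 3 marked 12, 56 and 79 (13.3, 62.2 and 87.8%), against 11.7, 32.2 and 42.7% of all 21627 genes. HOM replicates 1 to 3 marked 41, 0 and 1 (45.6, 0 and 1.11%), against 22.9, 0.384 and 8.08% of all genes. The share was thus 1.93, 2.06 and 1.99 times that of all genes in WT replicates 2 and 3 and HOM replicate 1, 1.14 times in WT replicate 1 and 0.138 times in HOM replicate 3. Against genes no longer than 10 kb, which include 88 of the 90 members, the difference was wider in the 3 longest lists, since the marked share of those genes was 8.89, 22.6 and 31.5% in the WT libraries and 16.3, 0.271 and 5.99% in the HOM ones.

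**Figure D1:**
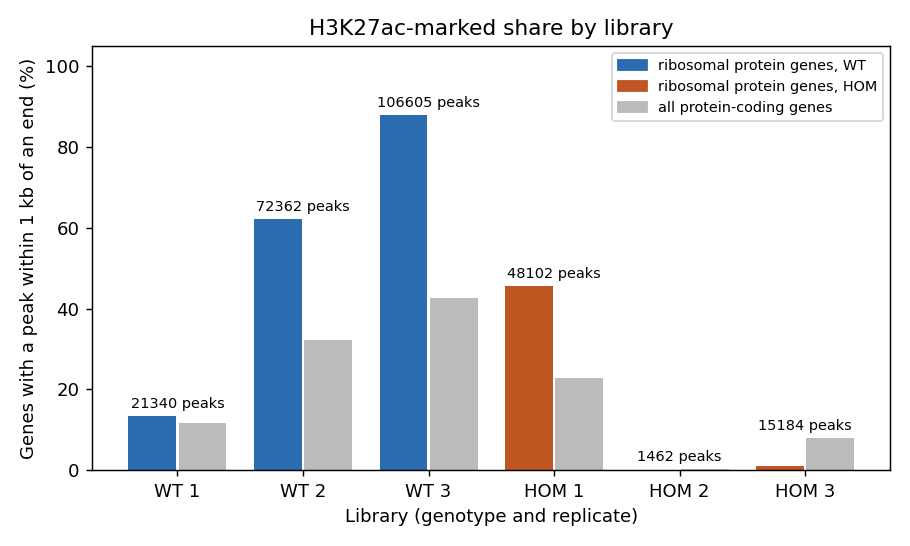
Share of genes (vertical axis, %) with a called H3K27ac peak within 1 kb of either gene end in each library (horizontal axis), for the 90 ribosomal protein genes (blue, WT; orange, HOM) and all 21627 protein-coding genes (grey), with the list length above. The coloured bar is near double the grey one in WT 2, WT 3 and HOM 1 and far below it in HOM 3.

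Between genotypes the marked share was 54.4 ± 37.8% in WT (SD, n = 3) and 15.6 ± 26% in HOM (SD, n = 3). HOM minus WT was -38.9 percentage points, beside 28.8 ± 15.8% and 10.5 ± 11.5% for all genes, or -18.4 points. The groups overlapped: WT replicate 1 lay below HOM replicate 1. Leaving out HOM replicate 2 gave -31.1 points. Between the libraries with many Y peaks, WT replicate 1 and HOM replicate 1, it was 32.2 points, and among the other 4 libraries it was -74.4 points (-73.9 without HOM replicate 2), so the direction turned with the set. When HOM replicate 2 was left out and the other lists were limited to their 15184 strongest peaks, the difference was -6.11 points. WT lists were longer on average than HOM lists, and the part of list length in the difference cannot be told apart from that of the deletion.

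The share of marked ribosomal protein genes was followed down the ranking of peaks by fold, which is the height of a peak at its summit over the caller's background in that library, as deposited. Among the strongest 1462 peaks of each list, none lay at a member in the 3 WT libraries or in HOM replicates 2 and 3, and HOM replicate 1 had 1 member marked. Of all genes 0.384 to 1.17% were marked at that length, so 0 or 1 of 90 is at the background. With the strongest 15184 peaks kept, the WT libraries (replicates 1 to 3) had 9, 10 and 20 marked members (10, 11.1 and 22.2%), against 8.56, 10.7 and 14.1% of all genes. At the same length 14 were marked in HOM replicate 1 (15.6%, against 9.58% of all genes) and 1 in HOM replicate 3. With 48102 peaks kept, marked members numbered 40 in WT replicate 2, 56 in WT replicate 3 and 41 in HOM replicate 1 (44.4, 62.2 and 45.6%), against 26.2, 31.8 and 22.9% of all genes. In WT replicate 2 the ratio to all genes was 0.33, 0.793, 1.04, 1.15 and 1.7 at the strongest 5000, 10000, 15184, 21340 and 48102 peaks. In WT replicate 3 it was 0.723, 1.5, 1.57, 1.54 and 1.95, and in HOM replicate 1 it was 0.695, 1.36, 1.62, 1.31 and 1.99. The ratio did not rise at every step, and in these 3 libraries it was lowest at 5000 and highest at 48102 of these 5 lengths. Those at 5000 peaks rested on 1, 3 and 2 marked members and those at 10000 on 5, 13 and 8, so they are coarse. WT replicate 1 had ratios of 0.82, 1.34, 1.17 and 1.14 at 5000, 10000, 15184 and 21340 peaks, with no rise beyond 10000.

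HOM replicate 3 stood apart at equal length. Its single marked member was Rpl3l, whereas the other 4 lists cut to the same length held 9 to 20 members. Of the 12 members marked in the full list of WT replicate 1, 1 was marked in HOM replicate 3 (8.33%), against 43.5% of all genes marked in WT replicate 1. The same list marked 14 of 15 cardiomyocyte markers. HOM replicate 1 did not share this, and whether it belongs to the genotype or to that library was not tested.

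**Figure D2:**
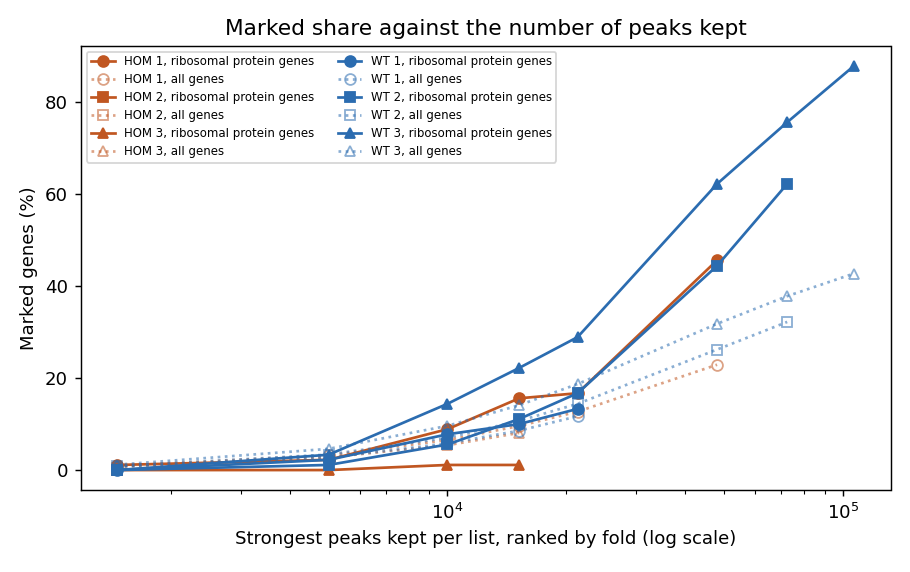
Marked genes (vertical axis, %) when only the strongest peaks of a list are kept (horizontal axis, number of peaks, log scale), for ribosomal protein genes (solid lines) and all protein-coding genes (dotted lines). The solid lines leave the dotted ones between 15184 and 48102 peaks in WT 2, while HOM 3 stays at 1.11%.

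Peaks at marked ribosomal protein genes were of moderate strength. The median fold of the strongest peak at a marked member was 5.24, 4.63 and 5.82 in WT replicates 1, 2 and 3 and 4.53 in HOM replicate 1, against 4.84, 5.24, 6.27 and 4.91 over all marked genes. Its median percentile within the list was 71.5, 51.2 and 73 in WT and 46.6 in HOM replicate 1, against 55.3, 67.3, 77.7 and 61.4 over all marked genes. Members thus ranked below other marked genes in 3 of these 4 libraries and above them in WT replicate 1, where 12 members were marked. The mean difference over the 4 libraries was -4.86 percentile points (SD 14.9). With the median over all peaks at a gene in place of the strongest it was -1.43 (SD 8.66). In WT replicate 2 marked members had a median of 1 peak against 2 over all marked genes, and in the other 3 libraries the medians were equal. The part of peak number in the lower rank was not tested. Their strongest peaks were 232, 208 and 332 bp wide in WT and 240 bp in HOM replicate 1 (medians), against 232, 340, 467 and 282 bp. Peaks above the 90th percentile of fold were found at 4 members in WT replicate 2, 16 in WT replicate 3, 4 in HOM replicate 1 and 0 in WT replicate 1. That is 7.14, 20.3, 9.76 and 0% of the marked members, against 16.9, 25.2, 15.6 and 8.41% of all marked genes. Across marked members the fold of the strongest peak ran from 3.22 to 9.27 in WT replicate 2, from 3.14 to 11.6 in WT replicate 3 and from 3.4 to 9.06 in HOM replicate 1.

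**Figure D3:**
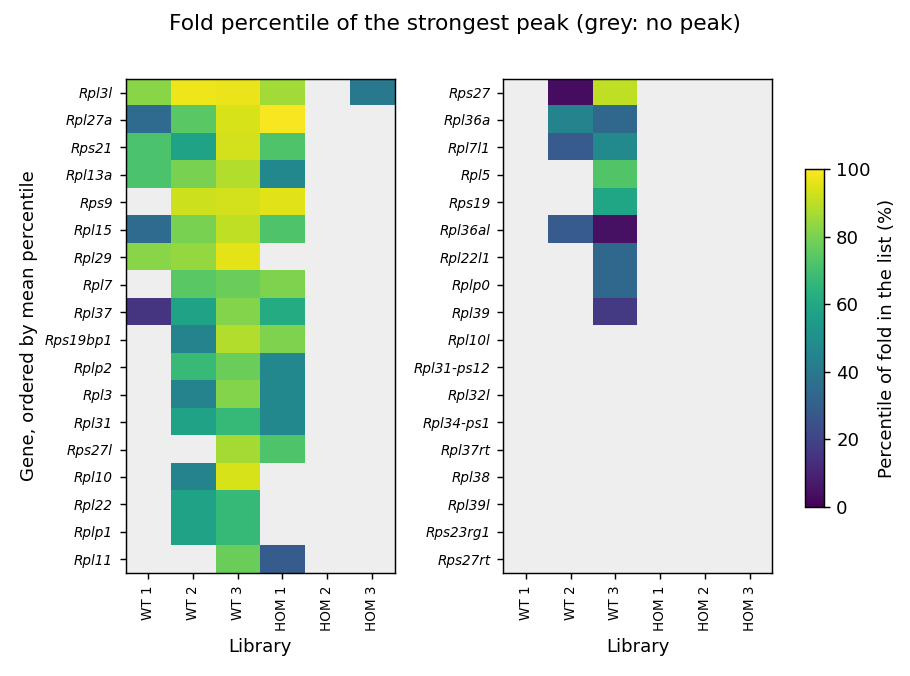
Percentile of fold within the list (colour, %) for the strongest peak at 36 of the 90 genes, those named in the text (rows, ordered by the mean over libraries with unmarked counted as 0), in each library (columns); grey means no peak. Rpl3l is at the top with a peak in 5 libraries, and the genes at the end of the order have none.

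Rpl3l had the highest mean fold percentile of the members, 67.3. It was marked in 5 libraries, beside 1.11% of members and 4.73% of all genes with that count. The fold of its strongest peak at a gene end was 5.65, 9.27 and 11.6 in the WT libraries, 6.04 in HOM replicate 1 and 4.62 in HOM replicate 3. Peaks covered 1050, 1824 and 3044 bp of its end windows in the WT libraries, 1589 bp in HOM replicate 1 and 710 bp in HOM replicate 3. This was the longest cover of any member in all 5 libraries, and ranked 47th, 185th and 84th of 2520, 6957 and 9232 marked genes in the WT libraries, 72nd of 4958 in HOM replicate 1 and 95th of 1747 in HOM replicate 3. The WT and HOM values overlapped, and the exact permutation test over libraries gave p = 0.6 (two-sided, within-library percentile of covered length, 3 against 3).

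The acetylation of Rpl3l lay at or close to both annotated starts given above. The gene spans positions 24727826 to 24736143 of chromosome 17 on the + strand. In WT replicate 3 a peak of 3057 bp extended over the first start, and in the other libraries the nearest peak was 155 bp away in WT replicate 1, 8 bp in WT replicate 2, 50 bp in HOM replicate 1 and 93 bp in HOM replicate 3. The inner start lies 4859 bp into the gene at position 24732685. It lay within a peak in WT replicates 2 and 3 and HOM replicate 1, and 88 and 193 bp from one in WT replicate 1 and HOM replicate 3. The inner peak, outside the end windows, had a fold of 8.46 and a width of 1763 bp in WT replicate 2, 12.1 and 2555 bp in WT replicate 3, and 6.41 and 1122 bp in HOM replicate 1. Msrb1 has an annotated end within 1 kb of the distal end of Rpl3l, so peaks there can belong to either gene.

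**Figure D4:**
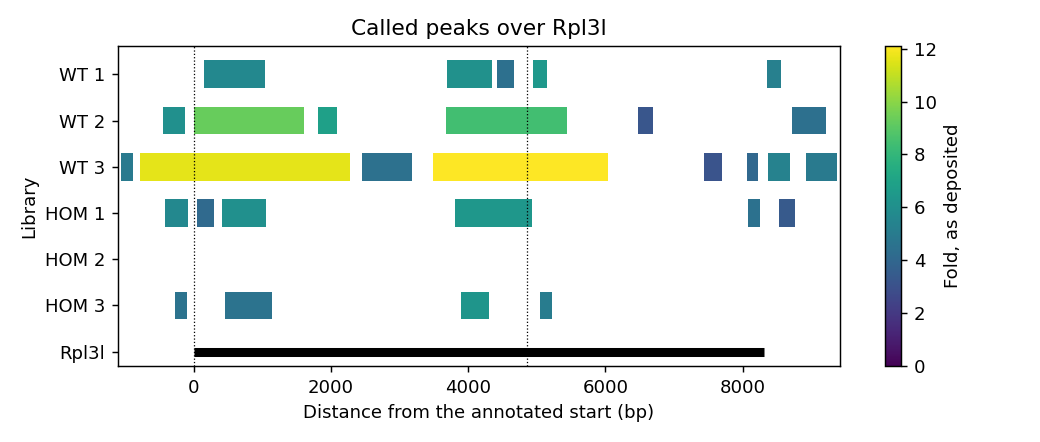
Called peaks (boxes, coloured by the deposited fold) over Rpl3l in each library (rows) by distance from the first annotated start (horizontal axis, bp); the black bar is the gene and dotted lines are its annotated starts. Boxes cluster at the first start and at the inner one, 4859 bp on, in every library but HOM 2.

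Rpl3, the ubiquitous counterpart of Rpl3l, carried weaker marks. It was unmarked in WT replicate 1 and in HOM replicates 2 and 3. Its strongest peak had a fold of 4.43 in WT replicate 2, 6.72 in WT replicate 3 and 4.53 in HOM replicate 1. Peaks covered 560, 771 and 483 bp there, less than at Rpl3l in each of these libraries.

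The other paralogues had sparse marks at their ends or none. Rps27l, a p53-responsive paralogue of Rps27, had a fold of 7.62 in WT replicate 3 and 5.28 in HOM replicate 1, from peaks inside the gene whose edges reached 83 and 8 bp into the start window. In WT replicates 1 and 2 it had a peak inside the gene but outside the end windows. Rps27 was marked in WT replicates 2 and 3 with folds of 3.22 and 8.51. Rpl7l1 was marked in WT replicates 2 and 3 (fold 4.03 and 4.48), and Rpl7 in those and in HOM replicate 1 (5.64, 6.27 and 5.66). Rpl36al and Rpl36a were each marked in WT replicates 2 and 3, with folds of 4.03 and 3.14 and of 4.43 and 4.03. Rpl22l1 was marked in WT replicate 3 alone (4.03), where its partner Rpl22 had 5.38. Rpl10l, a gene of the male germ line, and Rpl39l were unmarked in every library, while Rpl10 had folds of 4.43 and 9.86 in WT replicates 2 and 3 and Rpl39 one of 3.58 in WT replicate 3.

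None of the 6 genes with names of copies was marked in any library. Rps27rt shows how such a gene relates to its source: 38 of its first 40 transcribed bases match Rps27 (95%, shifted by 1 base), but 22 of the 60 bases before the start do (36.7%, the best of 11 ungapped shifts). Of all protein-coding genes 55.6% were marked in no library and of the members 11.1%, among them these 6, Rpl10l, Rpl39l and Rpl38. For Rpl31-ps12 and Rpl31 the first 40 transcribed bases matched at 15 positions (37.5%). Reads from near-identical stretches can map to more than 1 locus, and how the submitters treated such reads is not given in the sources used here.

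Rpl38 had no marked end in any library. This gene, whose protein is needed for translation of certain homeobox transcripts, had peaks inside the gene in WT replicates 2 and 3 and HOM replicate 1, with folds of 4.43, 4.03 and 4.15. Its annotated start in the promoter table lies 762 bp inside the gene end used here, and the nearest peak was 635 bp from that start in WT replicate 3 and 782 bp in HOM replicate 1. No peak lay within 500 bp of either start.

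Both subunits had marked genes in the same 4 libraries. Of 43 large-subunit genes, 7, 27 and 41 carried a peak in the WT libraries and 19, 0 and 0 in the HOM ones. Of 30 small-subunit genes, 4, 23 and 29 carried a peak in the WT libraries and 18, 0 and 0 in the HOM ones. Of the stalk genes, Rplp2 was marked in WT replicates 2 and 3 and HOM replicate 1 (fold 5.24, 6.27 and 4.53), Rplp1 in WT replicates 2 and 3 (4.83 and 5.38) and Rplp0, a common reference gene for expression, in WT replicate 3 (4.03). Rps19bp1 was marked in the same 3 libraries as Rplp2 (fold 4.43, 8.07 and 5.66). Of 20 members mutated in or linked to Diamond-Blackfan anaemia, a bone marrow failure disorder of ribosomal proteins, 3, 13 and 20 carried a peak in the WT libraries and 12, 0 and 0 in the HOM ones. Named after their values were seen, Rps19 and Rpl5 were marked in WT replicate 3 alone (fold 4.93 and 5.82), and Rpl11 there and in HOM replicate 1 (6.27 and 4.15).

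Among the subunit genes with the highest mean percentile of fold were Rpl27a, Rps21, Rpl13a, Rps9, Rpl15 and Rpl29. Rpl27a had a fold of 4.44, 5.64 and 9.86 in WT replicates 1, 2 and 3 and 9.06 in HOM replicate 1, the highest of any member in that library, at the 99.2 percentile of its list. Its strongest peaks lay upstream, with summits at -643, -1036 and -550 bp from the start in WT and at -1033 bp in HOM replicate 1. The summits in WT replicate 2 and HOM replicate 1 thus lay just outside the 1 kb window, which their peaks overlapped in part. The other peak at Rpl27a in HOM replicate 1 had a fold of 4.15, at the 29.2 percentile. No other protein-coding gene ends within 1 kb of Rpl27a.

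Rps21 had a fold of 5.24, 4.83 and 9.41 in WT and 5.28 in HOM replicate 1. The summits lay at -862, -674, -620 and -754 bp from the start. Cables2 has an annotated end within 1 kb of an end of Rps21. Rpl15 had 4.44, 6.04 and 8.51 in WT and 5.28 in HOM replicate 1. Nkiras1 has an annotated end within 1 kb upstream of the Rpl15 start. The WT summits lay on that side, at -611, -849 and -800 bp, and the one in HOM replicate 1 at 208 bp. At both genes HOM replicates 2 and 3 had no peak.

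Rpl13a, whose protein also serves in a translational silencing complex, had a fold of 5.24, 6.04 and 8.07 in WT and 4.53 in HOM replicate 1. Rps9 was unmarked in WT replicate 1 and in HOM replicates 2 and 3. Its strongest peak was 233 bp wide with a fold of 7.65 in WT replicate 2. In WT replicate 3 it was 250 bp wide with a fold of 9.41, and in HOM replicate 1 309 bp with 7.17. The summits at Rps9 lay at -134, -150 and -143 bp from its annotated gene end, close together in the 3 libraries.

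Rpl29 was the member marked in all WT libraries and in no HOM library, a pattern that 1.1% of all genes had, so 1 of 90 members is at that background. Its fold was 5.65, 6.45 and 10.8 in WT, with 300, 543 and 723 bp covered. HOM replicate 1, in which 41 other members were marked, had no peak there. No member had the reverse pattern, and of all genes 0% had it.

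Per gene, the within-library percentile of covered length was compared between genotypes by an exact permutation test, two-sided, over the 20 assignments of 3 against 3 libraries. The smallest p this design allows is 0.1, so no gene could pass 0.05; 0 of 21627 genes had p below 0.05 and every Benjamini-Hochberg value was 1. In this percentile the genotypes did not overlap, with WT higher, at 4 members (Rpl13a, Rpl27a, Rpl29 and Rpl37), against 2.54% of all genes. HOM was higher without overlap at 0 members, against 0.037% of all genes. At Rpl27a the percentiles were 98.6, 88.5 and 91.2 in WT and 86.2, 0 and 0 in HOM, at Rpl13a 89.1, 92.3 and 97.6 and 86.9, 0 and 0, and at Rpl37 96.8, 83 and 87.1 and 82.8, 0 and 0. At these 3 genes HOM replicate 1 lay just below the lowest WT library. Unmarked genes count as 0 in the percentile, so its value at a marked gene depends on how many genes the list marks. At Rpl13a the covered length itself went the other way, with 137 bp in WT replicate 1 and 312 bp in HOM replicate 1. At Rpl29 they were 95.3, 85.6 and 78.6 in WT and 0 in each HOM library. Without WT replicate 1 the count was 29 (32.2% of members, against 13.7% of all genes) and without HOM replicate 1 it was 10 (11.1%, against 6.61%), so single libraries set it.

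The sets of marked members were largely nested, as were those of all genes. All 41 members marked in HOM replicate 1 were also marked in WT replicate 3, where they made up 51.9% of the 79; over all genes the shares were 98.1 and 52.7%. Of the 56 in WT replicate 2, 55 were marked in WT replicate 3, which is 98.2% of the former and 69.6% of the latter, against 95.9 and 72.3% over all genes. Of the 12 in WT replicate 1, 11 were marked in HOM replicate 1, which is 91.7% of the former and 26.8% of the latter, against 84.6 and 43% over all genes. Marking in at least 3 libraries was seen at 36 members, against 22.7% of all genes.

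Peaks lay around the annotated start, where the strand was known. Of the strongest peaks at 41, 60 and 30 marked members with a known strand in WT replicates 2 and 3 and HOM replicate 1, 35, 50 and 25 had their summit within 1 kb of the start (85.4, 83.3 and 83.3%), against 78.1, 76.8 and 79.8% over all marked genes. Since the members are short, with a median length of 3170 bp against 17330 bp, fewer positions in their windows are far from the start. In WT replicate 3, 30 of the 50 summits (60%) lay upstream of the start, against 46.9% over all marked genes, and the median position of the 50 was -206 bp, against 78 bp. In WT replicate 2 and HOM replicate 1, 45.7 and 44% of the 35 and 25 lay upstream, so the upstream position was not shared by the 3 libraries.

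**Figure D5:**
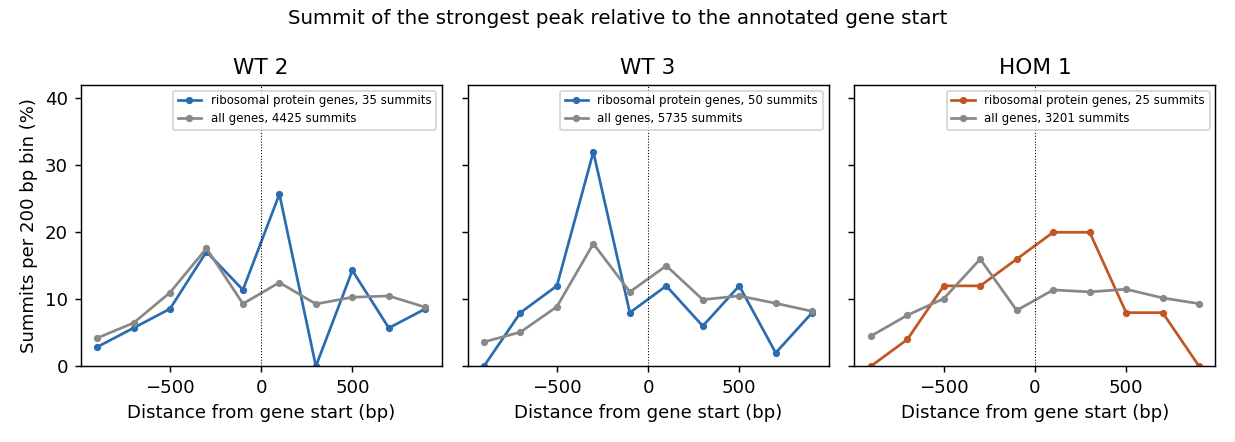
Summit of the strongest peak by distance from the annotated gene start (horizontal axis, bp; negative is upstream) as a share of summits per 200 bp bin (vertical axis, %), for ribosomal protein genes (coloured) and all marked genes (grey) in the 3 longest lists. In WT 3 the coloured line peaks upstream of the start, and in WT 2 and HOM 1 downstream of it.

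Another gene end lay within 1 kb of 32 of the 90 members. Of these 32, 5, 25 and 31 carried a peak in the WT libraries and 16, 0 and 1 in the HOM ones. Of the other 58, 7, 31 and 48 had a peak in the WT libraries (12.1, 53.4 and 82.8%) and 25, 0 and 0 in the HOM ones (43.1% in replicate 1). Members without a close neighbour were marked more often than all genes in WT replicates 2 and 3 and HOM replicate 1. All genes here include those with close neighbours, and the part of neighbouring ends in the excess was not tested.

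Other lists of translation genes had shares above those of all genes (32.2, 42.7 and 22.9%) in the 3 longest lists, WT replicates 2 and 3 and HOM replicate 1. In HOM replicate 1 biogenesis and polymerase I genes, at 30 and 28.6%, lay nearer to all genes than the ribosomal protein genes did (45.6%); these differences were not tested. Of 35 initiation factor genes, 7, 25 and 31 carried a peak in the WT libraries and 15, 0 and 3 in the HOM ones. Of 50 genes of ribosome biogenesis, which process ribosomal RNA and build the subunits, 8, 29 and 45 carried a peak in the WT libraries and 15, 0 and 4 in the HOM ones, led by Gnl3, Rrp9 and Rrs1. Of 14 genes of RNA polymerase I and its factors, 3, 8 and 12 carried a peak in the WT libraries and 4, 0 and 0 in the HOM ones, led by Polr1a. Of 18 genes of mTOR signalling and its targets, 3, 12 and 13 carried a peak in the WT libraries and 7, 0 and 3 in the HOM ones, with Myc in 5 libraries and Larp1 in none. In HOM replicate 3 the initiation and biogenesis lists were at 8.57 and 8%, near the 8.08% of all genes, while ribosomal protein genes were at 1.11%. There the polymerase I genes were at 0%, also below all genes, and the mTOR and elongation lists above, at 16.7 and 38.5%.

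Genes of elongation and related factors were the translation genes marked most often in the shorter lists of WT replicate 1 and HOM replicate 3. Of 13 such genes, 8, 9 and 12 carried a peak in the WT libraries and 9, 0 and 5 in the HOM ones. The 13 include Etf1, Gspt1, Hbs1l, Eef2k, Eef1e1 and Tpt1, which do not encode elongation factors themselves. Of these, Etf1, Gspt1 and Tpt1 were each marked in 3 WT libraries. Within that list Eef1a2 was marked in 3 WT and 2 HOM libraries, as were Eef1b2, Eef1g, Tpt1 and Eif5a. Only Eef1a1 was unmarked in every library. Eef1a2, the elongation factor isoform of muscle and neurons, had its strongest peak at a fold of 5.24, 10.9 and 13.9 in the WT libraries, 8.68 in HOM replicate 1 and 5.04 in HOM replicate 3. Eef1a1, the isoform of most other cells, at positions 78478453 to 78481724 of chromosome 9, had no peak over the whole gene and 1 kb on each side in any library. Eef1a2 and Eef1a1 were singled out after their values were seen, and Eef1a1 too has processed copies that can share its reads.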

How the data were processed

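CUT&RUN peak lists for H3K27ac, 1 per library, were used for 3 WT and 3 HOM libraries, grouped and numbered by the sample titles. BWA, MACS2 and the build mm10 are named in the submitters' processing notes; versions and filters are not given in the sources used here. In the deposited lists the authors' caller had set 4 values per peak: a score, the fold over background at the summit, and p-value and q-value, each as −log10. These were used only to rank, describe and filter peaks within a list. The lists hold no counts, so depth is not stated in them.

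Gene positions were those of RefSeq on GRCm38.p6, the assembly of mm10. Peaks overlapping 1 kb around either gene end by at least 1 bp were assigned. The table has no strand; strand and starts came from RefSeq promoter entries (69 members). A percentile is the share of a list's peaks with lower fold, ties at their middle. For covered length it is the share of genes with a lower value. Medians over members needed at least 5 marked members. The members and lists were chosen with earlier results of these data known. Named were members marked in 1 genotype only, in no library or in the shortest list, the 8 with the highest mean percentile, paralogues with their partners, the stalk genes, and up to 3 genes per other list. Some genes that this rule names are not reported here, and the plot of percentiles shows only genes named in the text. Alternatives were windows of 500 bp and 2 kb, whole genes, the 50% stronger peaks, lists of equal length, each library left out, the replicate block, other ranks and widths, subsets of members and short genes as background. Added after the data were seen were a −log10 q of at least 5 and the series of list lengths. Tested on simulated data, interval counting gave 0 mismatches in 200 trials. Of 200 genes planted among 21627 simulated for WT against HOM, 200 were recovered. The planted shift put every WT value above every HOM value, so this recovery was certain. It checks the code and not how well differences are found in lists of unequal length. Scripts ran in Python 3.11.15 with pandas 2.3.3, numpy 2.4.6 and scipy 1.17.1, and figures were drawn with matplotlib 3.10.9.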

Additional observations from a re-analysis of the deposited data

How the results depend on the processing

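Of 118 alternative values, 98 stayed within the spread between libraries or within 1.5 times the count, 18 moved and 2 turned. The cause was not tested except where given. This spread exceeded the value itself for the fold percentile (-4.86, SD 14.9) and the covered length (-57.2 bp, SD 97.2). Some values could not change. HOM replicates 2 and 3 had under 5 marked members and so never entered the medians, and subsets of members do not touch the translation lists. The 98 is thus no measure of robustness. With all lists limited to the shortest, 1462 peaks, the genotype difference in marked share turned to 0.37 points and the excess over all genes to -0.598 points, and the counts of members not overlapping between genotypes and of members marked in 3 WT and 0 HOM libraries were 0 and 0 (all genes 0.0601 and 0.0231%). Under that setting too few members were marked for medians of rank or width. With 5 libraries at 15184 peaks, the genotype difference was -6.11 points, the width of the strongest peak relative to all marked genes went from -77.4 to -288 bp and the covered length from -57.2 to -190 bp. The members not overlapping were then 2, and those in 3 WT and 0 HOM libraries were 2 (Rpl13a and Rpl29), against 2.15 and 0.555% of all genes. Windows of 500 bp, windows of 2 kb and whole genes gave 2 members not overlapping each (2.22%; all genes 1.87, 2.91 and 3.71%), against 4 (4.44%; all genes 2.58%). Windows of 500 bp gave 2 members in 3 WT and 0 HOM libraries (all genes 1.03%) and the stronger 50% of peaks gave 4 (all genes 0.874%), against 1. Over whole genes the covered length relative to all marked genes was -363 bp. Deviations of covered length from the genotype mean had correlations of -0.592, -0.334 and -0.245 between same-numbered libraries. Between the others these ran from -0.423 to 0.566. List length enters these deviations, so they cannot decide whether the numbers pair the libraries. With the replicate block the difference in share was -38.9 points, as it must be, and 9 members had all pairs in 1 direction (10%; all genes 5.33%), where the smallest sign-flip p is 0.25.

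Leaving out 1 library each, the genotype difference in share ran from -59.4 to -22.2 points, the excess over all genes from 9.4 to 19.8, the fold percentile relative to all marked genes from -11.9 (without WT replicate 1) to -1.11, the width from -103 to -58.2 bp, the covered length from -101 to -22.2 bp and the translation lists' excess from 12.3 to 21.1 points. Members not overlapping ran from 4 to 29 (all genes 3.38 to 13.7%) and members in all WT and no HOM libraries from 1 to 21 (all genes 1.11 to 9.54%), as a pattern over fewer libraries is met more easily. Depth could not be assessed without counts.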
